A study of Rattus norvegicus with 6 samples.

Results

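Mucins and other genes of the epithelial surface were examined in kidneys of heterozygous Han:SPRD Cy/+ rats and of wild-type +/+ rats. The list holds 7 genes: Muc1, Muc4 and Muc20, which encode membrane mucins, Eppk1, which encodes the cytoskeletal linker epiplakin, Epcam and Ceacam1, which encode adhesion molecules, and Pigr, which encodes the polymeric immunoglobulin receptor. The genes were chosen because earlier results of the same comparison were known, so their own differences between the genotypes are described here without a test. A gene was measured by the probe sets that the array annotation names for it alone, and its brightest probe set over the 6 arrays stood for the gene. Of the 7 genes, 6 had such a probe set, 8 probe sets in all, out of 14218 genes with a probe set of their own on the whole array. Muc20 had none and was not analysed here, and 1 probe set shared by Ceacam4 and Ceacam1 was left out.

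Kidney RNA of male rats, 3 Cy/+ and 3 +/+ samples, was hybridized to rat genome oligonucleotide arrays, 1 array per sample. Cy/+ rats carry 1 mutant copy of Anks6 in all their cells and develop a slowly progressive polycystic kidney disease, and +/+ rats of the same Han:SPRD strain carry none. The labels give an age of 10 weeks, whereas the methods give a younger one, and no drug treatment is named for these samples. Whether the samples of a genotype came from different rats is not stated in the sources used here, and p-values measure only how these samples spread, a spread that may be technical. Values are linear signal intensities in arbitrary units. Probe sets whose mean log2 signal over the 6 arrays reached 6.28, a signal of 77.8, were tested for the difference between the genotypes with limma. This left 18625 probe sets and 10645 genes, and Benjamini-Hochberg adjusted p under 0.05 counted as passing. All 8 probe sets of the listed genes reached this level.

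The genotypes differed widely on these arrays. Of the genes tested, 66.7% passed limma, 37.4% higher and 29.3% lower in Cy/+ kidneys, and of the probe sets tested 67.1% passed, 35.8% higher and 31.3% lower. The median over all genes tested was a log2 fold change of 0.09. Across probe sets, which are no replicates, log2 signals correlated at 0.982 to 0.990 between Cy/+ arrays, at 0.997 between +/+ arrays and at 0.907 to 0.940 across the genotypes. Controls that carry no rat RNA differed as well: 18 of 18 hybridization controls and 24 of 24 poly-A controls had all their Cy/+ signals above all their +/+ signals, by medians of 1.83-fold and 3.82-fold. The signal ratio of 3' over 5' control probe sets, by which RNA integrity is judged, was 3.05 to 3.53 in Cy/+ and 1.504 to 1.516 in +/+ kidneys for Actb, and 1.74 to 1.92 in Cy/+ and 1.15 to 1.22 in +/+ kidneys for Gapdh. Their part in the results below was not tested. The kidney marker Umod, which encodes the uromodulin of the thick ascending limb, had signals of 13290, 12630 and 19070 in Cy/+ and of 17280, 18840 and 17610 in +/+ kidneys, so the labelled tissue bore its own marker on every array.

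The products of these genes cover or join epithelial cells. Membrane mucins are long, heavily O-glycosylated proteins that stand on the apical side of the cell, hydrate and shield it, and carry a short cytoplasmic tail that binds signaling proteins. Epiplakin binds keratin filaments inside the cell. Epcam and Ceacam1 hold neighbouring cells together and signal from the membrane, and the polymeric immunoglobulin receptor takes dimeric immunoglobulin A and pentameric immunoglobulin M up at the basal side and carries them to the lumen.

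At the probe set that stood for the gene, each Cy/+ signal lay above each +/+ signal in all 6 measured genes. The same was true of 41.5% of all genes tested, and since the genes were chosen on this comparison nothing is read from their count. The sizes fell into separate ranges. Muc4 and Eppk1 lay below the threshold for testing on every +/+ array and far above it on every Cy/+ array, Muc1 and Pigr were measured well above it in both genotypes with log2 differences of 1.17 and 0.85, and Epcam and Ceacam1 had log2 differences of 0.39 and 0.32.

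**Figure D1:**
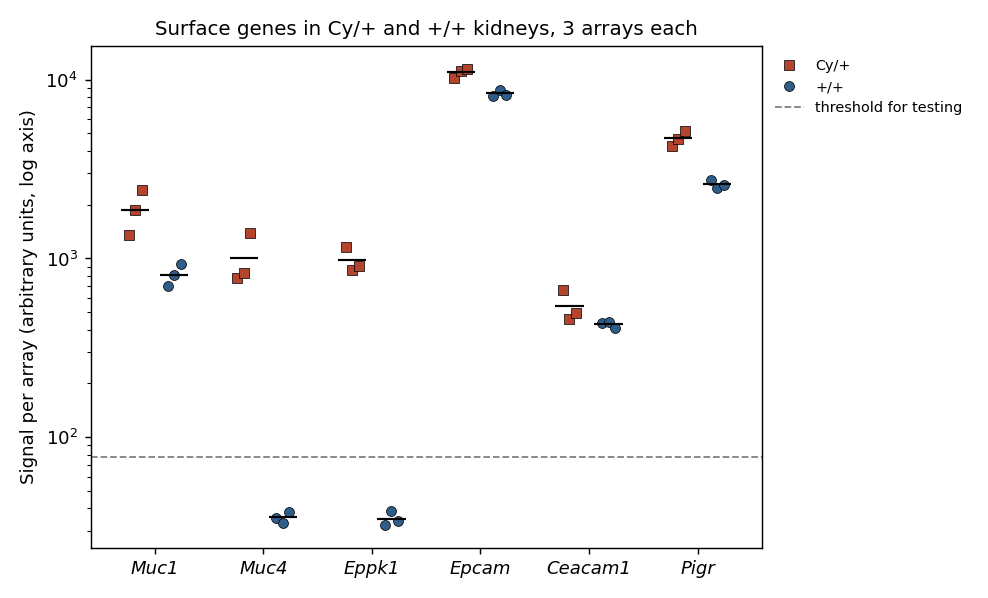
Signal of each array (arbitrary units, log axis) for the 6 measured genes, with Cy/+ arrays as squares left of the +/+ arrays as circles and horizontal bars at the group means of 3 arrays. Muc4 and Eppk1 sit under the dashed threshold of 77.8 on all +/+ arrays and between 779 and 1393 on all Cy/+ arrays.

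Muc1 encodes the mucin of the apical membrane of many simple epithelia, the distal nephron among them. Its signal was 1351, 1856 and 2413 in Cy/+ kidneys, against 703.8, 805.8 and 928.8 in +/+ kidneys. The dimmest Cy/+ array was thus 1.45 times as bright as the brightest +/+ array. The group means were 1873 ± 531 in Cy/+ and 813 ± 113 in +/+ kidneys (SD, n = 3 each), a log2 difference of 1.17, or 2.26-fold. The 3 Cy/+ arrays spread more than the 3 +/+ arrays, with a ratio of brightest to dimmest of 1.79 in Cy/+ and 1.32 in +/+ kidneys.

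Muc4 encodes a large membrane mucin, first described in rat tumor cells as a sialomucin complex, whose transmembrane subunit binds the receptor ErbB2. Its signal was 779.4, 831.3 and 1393 in Cy/+ kidneys, against 35.33, 33.29 and 38.37 in +/+ kidneys. The +/+ signals were all below the threshold, so the difference has only a lower bound: with the geometric mean of the Cy/+ arrays set against the threshold signal of 77.8, Muc4 was at least 12.4-fold higher. The measured log2 difference, which rests on these dim +/+ signals, was 4.76. Array 3 was the brightest of the Cy/+ arrays, at 1.79 times the dimmest.

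Eppk1 encodes epiplakin, a plakin built from a row of plakin repeat domains that attaches to keratins. The signal of its probe set was 1165, 859.2 and 904.4 in Cy/+ kidneys, against 32.4, 38.53 and 33.84 in +/+ kidneys. Here too all +/+ arrays lay below the threshold, and Eppk1 was at least 12.4-fold higher in Cy/+ kidneys by the same bound, with a measured log2 difference of 4.80. Among the Cy/+ arrays the order was another one than for Muc4, with array 1 the brightest for Eppk1 and the dimmest for Muc4. Of all genes tested, 0.611% were higher by a log2 difference of 3 or more, and 2.64% had a +/+ mean below the threshold with every Cy/+ array above every +/+ array.

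Epcam encodes the epithelial cell adhesion molecule, which binds its like on the neighbouring cell and lies along the lateral membrane of tubule cells. It was bright on all arrays, with 10270, 11110 and 11500 in Cy/+ kidneys and 8137, 8785 and 8229 in +/+ kidneys. The groups did not overlap, but the dimmest Cy/+ array was only 1.17 times the brightest +/+ array. Means were 10960 ± 629 in Cy/+ and 8384 ± 351 in +/+ kidneys (SD, n = 3 each), a log2 difference of 0.39.

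Pigr encodes the receptor that epithelia use to bring polymeric immunoglobulins into the lumen, where its outer part is cut off as the secretory component. Its signal was 4251, 4630 and 5179 in Cy/+ kidneys, against 2744, 2467 and 2589 in +/+ kidneys. Every Cy/+ array was at least 1.55 times as bright as every +/+ array. The means were 4687 ± 467 in Cy/+ and 2600 ± 139 in +/+ kidneys (SD, n = 3 each), a log2 difference of 0.85, or 1.80-fold.

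Ceacam1 encodes an adhesion molecule of epithelial and immune cells whose long cytoplasmic tail recruits the phosphatases SHP-1 and SHP-2, and its transcript is spliced into forms with long and short tails. It was the 1 gene of the list with several probe sets, and they ran in opposite directions. The brightest, 1374620_at, gave 665.4, 456.1 and 498.4 in Cy/+ and 436.5, 439.9 and 408.2 in +/+ kidneys, with a log2 difference of 0.32. The Cy/+ arrays stood just clear of the +/+ arrays, at 1.04 times the brightest of them, and without Cy/+ array 1 the log2 difference was 0.16.

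At the other probe sets of Ceacam1 every Cy/+ array was dimmer than every +/+ array, as were 33.1% of all genes tested. Probe set 1382975_at gave 210.2, 140.7 and 178.5 in Cy/+ and 284.9, 262.7 and 229.1 in +/+ kidneys, a log2 difference of -0.57. Probe set 1369854_a_at gave 52.44, 50.12 and 41.88 in Cy/+ kidneys, all below the threshold, and 133.4, 137.8 and 129.1 in +/+ kidneys, at least 1.71-fold lower in Cy/+ kidneys with a measured log2 difference of -1.48. The probe set shared with Ceacam4 was lower as well, with 36.29, 38.49 and 45.83 in Cy/+ and 95.35, 94.34 and 80.01 in +/+ kidneys. The direction of Ceacam1 therefore depends on the probe set, and no source used here places these probe sets on its transcripts.

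**Figure D2:**
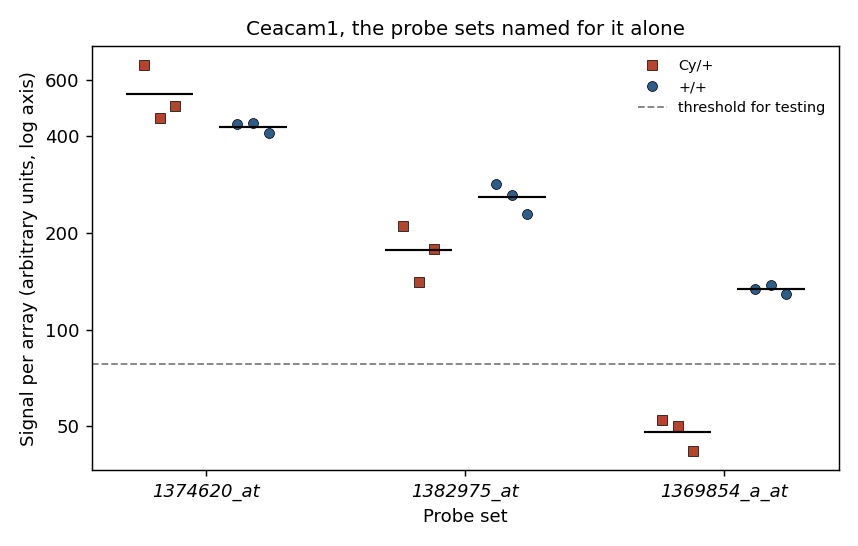
Signal of each array (arbitrary units, log axis) for the 3 probe sets named for Ceacam1 alone, with Cy/+ squares left of +/+ circles, bars at the group means of 3 arrays and the threshold for testing as a dashed line. The brightest probe set is higher in Cy/+ kidneys, with a log2 difference of 0.32, and the other probe sets are lower, at -0.57 and -1.48.

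The stretches of 250 bases upstream of the transcription start were read from RefSeq (rat assembly GRCr8), which held 6 of the 7 listed genes, Muc20 among them. Eppk1 had no entry. Muc4 is shown because it lay below the threshold in +/+ and far above it in Cy/+ kidneys, and Pigr and Ceacam1 because in humans both promoters hold an E-box that the factors USF1 and USF2 bind. Each is written 5′ to 3′ on the strand of the gene, and capitals mark the 1 match to TTCNNNGAA, the palindrome read by STAT factors, in Muc4 (minus strand, chr11:81558315-81558564) and the 1 match to the E-box CACGTG in Pigr (plus strand, chr13:44850932-44851181) and in Ceacam1 (minus strand, chr1:90187793-90188042).
Muc4: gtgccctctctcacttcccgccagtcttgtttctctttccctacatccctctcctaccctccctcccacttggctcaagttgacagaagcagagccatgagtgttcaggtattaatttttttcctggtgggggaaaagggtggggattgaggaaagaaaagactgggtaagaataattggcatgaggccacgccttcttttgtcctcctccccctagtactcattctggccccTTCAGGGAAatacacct
Pigr: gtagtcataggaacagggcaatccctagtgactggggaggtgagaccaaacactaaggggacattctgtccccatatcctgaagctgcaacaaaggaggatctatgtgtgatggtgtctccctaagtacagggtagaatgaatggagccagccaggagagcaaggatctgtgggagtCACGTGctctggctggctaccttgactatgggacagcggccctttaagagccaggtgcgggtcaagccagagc
Ceacam1: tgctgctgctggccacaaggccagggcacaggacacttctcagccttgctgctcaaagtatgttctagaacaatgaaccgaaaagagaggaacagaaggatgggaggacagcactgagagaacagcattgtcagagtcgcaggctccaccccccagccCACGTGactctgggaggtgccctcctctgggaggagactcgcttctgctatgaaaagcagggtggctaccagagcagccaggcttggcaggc

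The palindrome began 17 bases before the Muc4 start and is held by 7.7% of all 33469 RefSeq promoter windows of the same length. The E-box began 73 bases before the start in Pigr and 92 in Ceacam1, and 5.6% of all windows hold it. Every CACGTG also matches the looser CANNTG, found in 65.5% of windows and in all 6 genes. Muc1 held 1 GGGCGG and Epcam 4, a motif in 30.5% of windows, and Epcam held 1 TGANTCA, found in 6.3%. The loose NF-kappaB motif, in 42.3% of windows, had 3 matches each in Ceacam1, Epcam and Pigr, and CGGAAGT, in 5.2%, had none in the 6 genes. Each motif was searched on both strands. A match describes the letters and not a bound site.

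Markers of the cell types in the tissue were read on the same arrays. In whole kidney, more cells of a type and more RNA per cell cannot be told apart. Urothelium, the lining of the renal pelvis, makes uroplakins and, in humans, MUC4. Uroplakin signals split the Cy/+ arrays. Upk1a gave 23.66, 1319 and 344.5 in Cy/+ kidneys and 23.43, 22.56 and 26.86 in +/+ kidneys, Upk1b gave 24.65, 1339 and 328.3 in Cy/+ and 29.54, 31.07 and 29.55 in +/+ kidneys, and Upk3a gave 52.96, 2139 and 331.5 in Cy/+ and 67.01, 61.97 and 79.06 in +/+ kidneys. Array 2 of Cy/+ was thus high in uroplakins, array 3 intermediate and array 1 at or under the level of +/+ kidneys.

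Muc4 and Eppk1 did not share that order of the Cy/+ arrays. Muc4 was nevertheless dimmest on array 1, as were Muc1, Epcam and Pigr, while Eppk1 and the brightest probe set of Ceacam1 were brightest there. The source of these orders was not tested. On Cy/+ array 1, with uroplakins at 0.76 to 0.97 times their +/+ mean, Muc4 was at 21.9 and Eppk1 at 33.4 times its own. On array 2, where Upk1a was at 54.3 times its +/+ mean, Muc4 was at 23.3 and Eppk1 at 24.6. Array 3 had Muc4 at 39.1 and Eppk1 at 25.9 times the +/+ mean, with Upk1a at 14.2. The ratios of all 6 genes rest on +/+ means below the threshold and describe the arrays only.

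**Figure D3:**
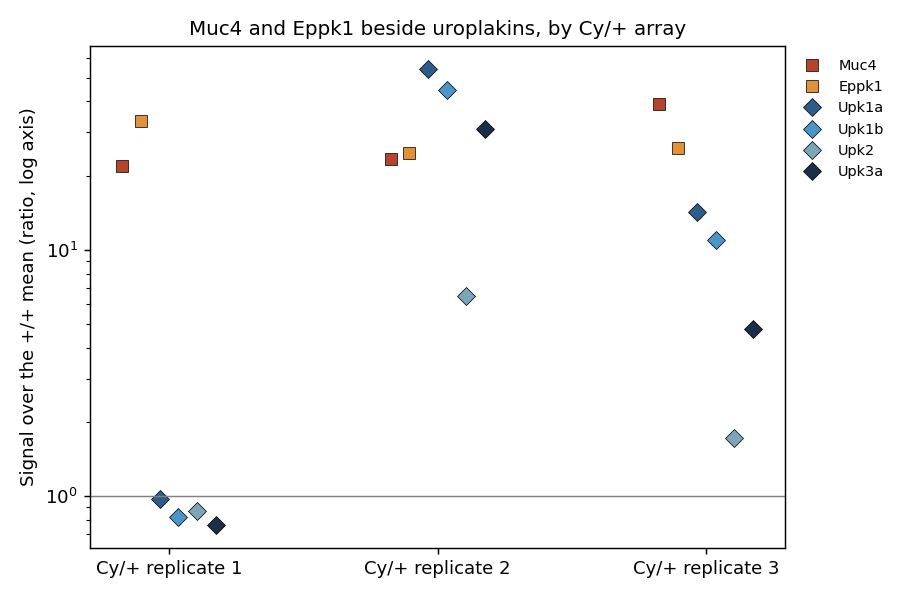
Signal over the mean of the 3 +/+ arrays (ratio, log axis) for Muc4 and Eppk1 (squares) and for 4 uroplakins (diamonds) on each Cy/+ array, with a line at a ratio of 1. On array 1 the uroplakins lie at 0.76 to 0.97 while Muc4 and Eppk1 lie at 21.9 and 33.4.

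Over the whole urothelium list, 8 of 10 genes had a probe set and 4 were tested. Psca passed as higher (adjusted p = 0.0448 from limma) although its groups overlapped, and it did not pass without Cy/+ array 2, without Cy/+ array 3 or without any 1 of the +/+ arrays. Upk1b, Upk3a and Krt5 did not pass, while without Cy/+ array 1 the count of higher ones on this list was 4. The summed signal of the list was 417 to 7014 in Cy/+ and 376 to 466 in +/+ kidneys, and Krt13 and Krt20 stayed below the threshold on all arrays. Markers of the collecting duct also varied among Cy/+ arrays, with a summed signal of 4800 to 16797 in Cy/+ and 5625 to 6849 in +/+ kidneys. Aqp2, its water channel, gave 2978, 9908 and 6850 in Cy/+ and 2651, 3274 and 3422 in +/+ kidneys, lowest among the Cy/+ arrays on array 1, and did not pass (adjusted p = 0.0757 from limma). Of the 7 tested markers only Aqp4 passed, as higher (log2 fold change 2.28, adjusted p = 0.00684 from limma), while without Cy/+ array 1 the count of higher ones was 6.

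Of 7 leukocyte markers, 6 were higher in Cy/+ kidneys, against 37.4% of all genes tested. Their summed signal was 2857 to 4597 in Cy/+ and 1232 to 1450 in +/+ kidneys. Itgam, the other one, did not pass (adjusted p = 0.995 from limma), at 93.28, 81.49 and 70.36 in Cy/+ and 71.97, 81.69 and 90.76 in +/+ kidneys. Ptprc, which encodes the pan-leukocyte antigen CD45, gave 898.4, 863.8 and 534.3 in Cy/+ and 252.4, 231.6 and 292.9 in +/+ kidneys. All 9 proximal tubule markers were lower, against 29.3% of all genes tested, at a summed signal of 8892 to 20698 in Cy/+ and 78730 to 83343 in +/+ kidneys. Slc34a1, the phosphate transporter of that segment, gave 3416, 880.4 and 3532 in Cy/+ and 17520, 16720 and 17200 in +/+ kidneys. Of 6 tested markers of the distal tubule and its ascending limb, 1 was higher, 2 were lower and 3 did not pass, and of 4 tested endothelial markers 2 were lower and 2 did not pass. The higher one of the distal tubule, Cldn16, did not pass without +/+ array 1 or without +/+ array 3, and Kcnj1, 1 of the lower ones, did not pass without Cy/+ array 1, without Cy/+ array 2 or without any 1 of the +/+ arrays. The lower endothelial markers were Vwf, at 199 ± 19.6 in Cy/+ and 775 ± 174 in +/+ kidneys (SD, n = 3 each, log2 fold change -1.94, adjusted p = 8.32e-05 from limma), and Kdr, at -1.04 (adjusted p = 0.00224 from limma). Pecam1, which did not pass, gave 664.4, 528 and 556.2 in Cy/+ and 614, 609 and 673.6 in +/+ kidneys. The part of these cell types in the levels of the listed genes was not tested.

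Genes that work with the listed ones were taken from 9 lists written by function. The lists were chosen with earlier results of these data known, so their counts are descriptions. They hold none of the 7 genes and were set against the same 10645 genes. Their counts stand against the 66.7% of all genes that passed, 37.4% higher and 29.3% lower.

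**Figure D4:**
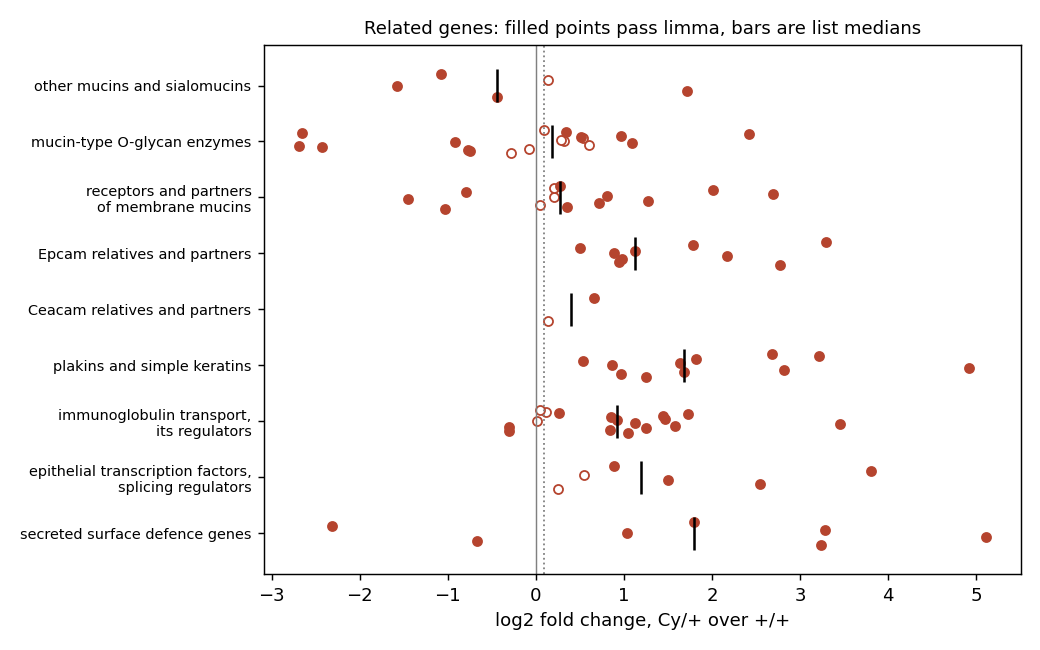
Log2 fold change, Cy/+ over +/+, of every tested gene in the 9 related lists, with filled points for genes that pass limma, black bars at list medians and a dotted line at the median of all genes tested, 0.09 (Jchain, Klf5 and Ehf, dim in +/+ kidneys, at their measured values). All 11 genes of the plakin and keratin list, Vim among them, and all 9 genes around Epcam lie right of 0. The mucins and the O-glycan enzymes lie on both sides.

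Few of the other mucins and sialomucins could be tested. Of 23 listed mucins and sialomucins, 9 had a probe set and 5 were tested, of which 1 was higher, 3 were lower and 1 did not pass. Their median log2 fold change was -0.44. Cd24, a small mucin-like surface glycoprotein of tubule progenitor and injured tubule cells, was the higher one, with 16077 ± 2121 in Cy/+ and 4909 ± 626 in +/+ kidneys (SD, n = 3 each; log2 fold change 1.71, adjusted p = 5.74e-05 from limma). Emcn, which encodes endomucin of the endothelium, was lower, at 742 ± 181 in Cy/+ and 2182 ± 170 in +/+ kidneys (log2 fold change -1.58, adjusted p = 0.000193 from limma). Also lower were Podxl, the podocalyxin of podocytes and endothelium, at -1.08 (adjusted p = 0.000236) and Cd164, an adhesion sialomucin, at -0.44 (adjusted p = 0.00575, both from limma).

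The gel-forming and other membrane mucins that had a probe set were dim, and those without one were not measured. Muc5b, a gel-forming mucin of the airway, gave 94.64, 85.76 and 93.67 in Cy/+ and 77.2, 86.79 and 85.7 in +/+ kidneys and did not pass (adjusted p = 0.248 from limma). Muc2, Muc3, Muc5ac and Muc13 were below the threshold in both genotypes, with signals of 15.49 to 56.74 in Cy/+ and 19.13 to 69.19 in +/+ kidneys.

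Enzymes that build mucin-type O-glycans went both ways. Of 36 listed, 28 had a probe set and 18 were tested, of which 5 were higher, 6 lower and 7 did not pass. The median log2 fold change of the tested enzymes was 0.19. Of all genes tested, 37.4% were higher and 29.3% lower, so nothing particular to the enzymes is read from their counts. St6galnac2, a sialyltransferase that caps O-glycans with alpha-2,6-linked sialic acid, was higher, at 1809, 2848 and 2416 in Cy/+ against 414.8, 408.7 and 474.6 in +/+ kidneys (log2 fold change 2.42, standard error 0.17, adjusted p = 4.39e-05 from limma). St6galnac3, of the same family, was lower, at 161.5, 78.49 and 155.7 in Cy/+ against 861.6, 770.8 and 751.4 in +/+ kidneys (log2 fold change -2.66, standard error 0.27, adjusted p = 0.000166 from limma). The groups of both enzymes were well apart, in opposite directions.

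The transferases that add the first N-acetylgalactosamine were split as well. Galnt14 gave 83.21, 71.49 and 79.41 in Cy/+ and 512, 530.8 and 472.1 in +/+ kidneys (log2 fold change -2.70, adjusted p = 1.36e-05 from limma). Galnt11 gave 506, 345 and 416.9 in Cy/+ and 2379, 2212 and 2140 in +/+ kidneys (-2.42, adjusted p = 2.92e-05 from limma). Galnt2 was the higher one among those tested, with 2947, 4150 and 3634 in Cy/+ and 1659, 1620 and 1692 in +/+ kidneys (1.10, adjusted p = 0.000279 from limma). Galnt1 (-0.77) and Galnt3 (-0.92) were lower too, and Galnt4, Galnt10 and Galnt18 did not pass. Of the transferases not tested, Galnt6 gave 87.66, 229.7 and 94.55 in Cy/+ and 44.22, 44.44 and 46.4 in +/+ kidneys. Galnt5, Galnt7, Galnt13 and Galnt16 had means below the threshold in both genotypes.

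Next in the pathway, C1galt1, the core 1 synthase, did not pass (log2 fold change -0.29, adjusted p = 0.116 from limma), and C1galt1c1, the chaperone it needs, was lower (-0.75, adjusted p = 0.00206 from limma). The sialyltransferases St3gal4 (0.96), St3gal2 (0.51) and St6galnac4 (0.34) were higher. St3gal2 did not pass when any 1 of the +/+ arrays was left out. Proximal tubule markers fell on the same arrays, as given above, and which cells hold these enzymes was not tested.

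**Figure D5:**
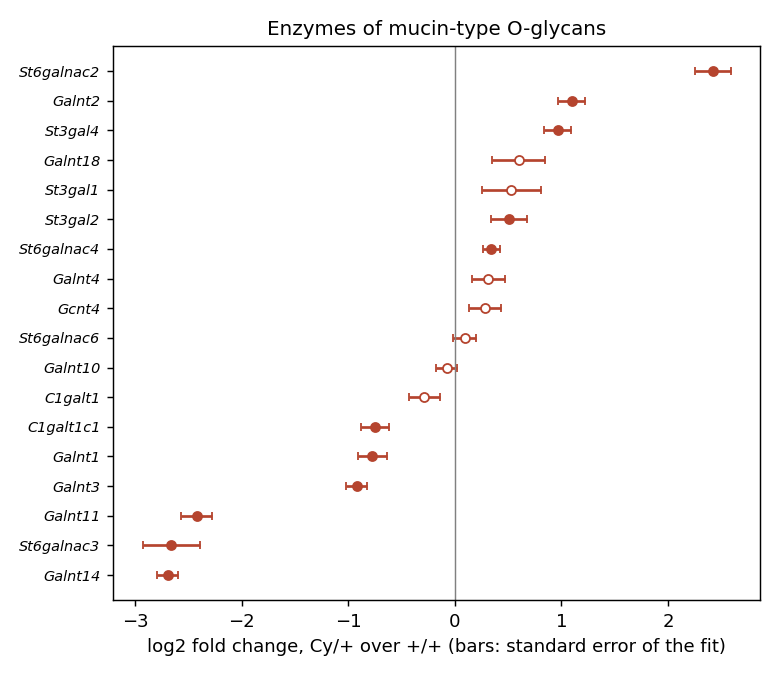
Log2 fold change, Cy/+ over +/+, of the 18 tested enzymes of mucin-type O-glycans, with bars for the standard error of the limma fit and filled points for genes that pass. St6galnac2 stands at 2.42 and Galnt14 at -2.70, with 5 enzymes higher and 6 lower.

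The receptors that membrane mucins bind were on both sides too. Of 13 tested receptors and partners, 7 were higher, 3 lower and 3 did not pass, with a median log2 fold change of 0.27. Erbb2, the receptor that Muc4 engages, gave 411.2, 666.2 and 622.1 in Cy/+ and 242.7, 228.4 and 215.9 in +/+ kidneys (log2 fold change 1.28, standard error 0.18, adjusted p = 0.000764 from limma). Erbb3, the partner that ErbB2 pairs with, gave 111.8, 115.4 and 128 in Cy/+ and 356.6, 305.6 and 313.6 in +/+ kidneys (-1.46, standard error 0.10, adjusted p = 4.94e-05 from limma). The receptors of this pair thus moved apart. Erbb4 was below the threshold in both genotypes.

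Of the other partners, Lgals3, which encodes galectin-3, a lectin that binds Muc1 glycans, was higher, at 3956 ± 809 in Cy/+ and 606 ± 28.2 in +/+ kidneys (log2 fold change 2.69, adjusted p = 2.47e-05 from limma). Mmp14, a protease that cuts the Muc1 ectodomain in human cells, was higher (2.01, adjusted p = 2.47e-05), as was Gsk3b, a kinase that phosphorylates the Muc1 tail (0.81, adjusted p = 0.000272). Adam10 was lower (-1.03, adjusted p = 0.000848), and so was Met, the receptor whose signaling Muc20 limits in human cells (-0.80, adjusted p = 0.00184, all from limma). Ctnnb1, the beta-catenin that binds the Muc1 tail, Grb2 and Sos1 did not pass, and Hgf, the Met ligand, was below the threshold in both genotypes. Egfr (0.72), Src (0.27) and Adam17 (0.36) were the other higher genes, and none of them passed without +/+ array 1 or without +/+ array 2. Nor did Src and Adam17 pass without Cy/+ array 1, Cy/+ array 2 or +/+ array 3, or with arrays centred on the median, nor Src with quantile normalization or the replicate block, nor Adam17 and Egfr with the methods' t-test. The list's count of higher genes was 4 without either of these arrays, against 7 with all.

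Genes around Epcam all moved 1 way. All 9 tested of 10 listed were higher, with a median log2 fold change of 1.13, against 37.4% of all genes. Tspan8, a tetraspanin found in complexes with Epcam, gave 4594, 7862 and 7285 in Cy/+ and 568.9, 634.3 and 767.4 in +/+ kidneys (log2 fold change 3.30, adjusted p = 3.76e-05 from limma). Cd44, the hyaluronan receptor, gave 1395, 1145 and 1218 in Cy/+ and 168.7, 196.7 and 184.5 in +/+ kidneys (2.77, adjusted p = 1.38e-05 from limma). Cldn7, the claudin that binds Epcam directly, gave 474.9, 330 and 311.4 in Cy/+ and 74.06, 74.06 and 97.03 in +/+ kidneys (2.17, adjusted p = 9.45e-05 from limma). All 3 had groups well apart. St14, which encodes matriptase, a membrane protease that cleaves Epcam, was higher by a log2 fold change of 1.79, and its inhibitors Spint1 and Spint2 by 1.13 and 0.50. Cdh1, the E-cadherin of adherens junctions, was higher by 0.98, Cd9 by 0.95 and Fhl2 by 0.89.

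Relatives of Ceacam1 were dim. Of 17 listed relatives and partners, 9 had a probe set, and the 7 Ceacam and Psg genes among these were below the threshold in both genotypes. Ptpn6, which encodes the phosphatase SHP-1, was higher, at 522.8, 680.1 and 487.9 in Cy/+ and 348.5, 345.4 and 368.5 in +/+ kidneys (log2 fold change 0.66, adjusted p = 0.00396 from limma). Ptpn6 is mainly a gene of blood cells, and leukocyte markers were higher on the same arrays. The part of leukocytes in the Ptpn6 signal was not tested. Ptpn11, which encodes SHP-2, did not pass (0.14, adjusted p = 0.154 from limma).

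Plakins and simple keratins, the linkers and filaments that epiplakin belongs with, were all higher. All 11 listed genes, Vim among them, were tested and passed as higher, with a median log2 fold change of 1.68, against 37.4% of all genes. Krt19, a keratin of ductal epithelium, gave 2750, 7245 and 5963 in Cy/+ and 122.5, 213.2 and 163.7 in +/+ kidneys (log2 fold change 4.92, standard error 0.37, adjusted p = 5.66e-05 from limma). Krt8 gave 4533, 5487 and 4421 in Cy/+ and 1585, 1611 and 1446 in +/+ kidneys (1.63, adjusted p = 3.58e-05 from limma), and its partner Krt18 gave 976.9, 3701 and 1793 in Cy/+ and 243.9, 274.2 and 279.4 in +/+ kidneys (2.81, adjusted p = 0.000964 from limma). Krt19 and Krt18 were lowest among Cy/+ arrays on array 1, where uroplakins and Aqp2 were lowest too, but stood above every +/+ array there.

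Among the plakins, Plec, which encodes plectin, gave 1384, 1581 and 1553 in Cy/+ and 408.4, 445.4 and 423.7 in +/+ kidneys (log2 fold change 1.82, standard error 0.09, adjusted p = 2.14e-05 from limma). Ppl, the periplakin of the cornified envelope, was higher by 3.21, Evpl by 1.68, Dsp, the desmoplakin of desmosomes, by 1.25, Dst by 0.97 and Macf1 by 0.53. Vim, the filament of mesenchymal cells and of injured or undifferentiated tubule cells, was higher by 2.68 (adjusted p = 2.47e-05 from limma), and Krt7 by 0.86.

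Around Pigr, 17 genes of immunoglobulin transport and its regulators were tested. Of these, 12 were higher, 2 lower and 3 did not pass, with a median log2 fold change of 0.92. Jchain, the joining chain that makes immunoglobulin A and M ligands of the receptor, gave 582, 1284 and 760.7 in Cy/+ and 71.46, 66.68 and 90.65 in +/+ kidneys. Its +/+ mean on the log2 scale was below the threshold, and Jchain was at least 10.6-fold higher (adjusted p = 7.38e-05 from limma). Of the other plasma cell and B cell markers, Mzb1 and Tnfrsf17 were below the threshold on all arrays, while Ms4a1 reached 107.6 and Cd79b 103.9 on Cy/+ array 2 alone.

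Signals that raise PIGR transcription in human cells include those through NF-kappaB, interferon gamma and interleukin 17. Relb gave 566.4, 581.4 and 566 in Cy/+ and 223, 204.5 and 201.5 in +/+ kidneys (log2 fold change 1.45, adjusted p = 2.83e-05 from limma). Tnfrsf1a, a receptor of tumor necrosis factor, was higher by 1.73 (adjusted p = 3.36e-05) and Il17ra, a receptor of interleukin 17, by 1.25 (adjusted p = 4.74e-05, both from limma). Irf1 (1.58), Nfkb1 (1.13), Rela (0.85) and Ifngr1 (0.84) were also higher. Usf1, whose product binds the E-box shown above in the human gene, differed little, at 486.1, 526.4 and 471.7 in Cy/+ and 421.2, 422.1 and 394.8 in +/+ kidneys (0.26, adjusted p = 0.0292 from limma), and did not pass without Cy/+ array 2, without any 1 of the +/+ arrays, with quantile normalization, with centring on the median or with the replicate block. Usf2 did not pass (0.11, adjusted p = 0.236 from limma). Il4r, a receptor gene on the same list, was lower, as given below. The part of these genes in the level of Pigr was not tested.

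Of the trafficking genes, Rab3d, a GTPase of apical secretory vesicles, was higher by 1.46 (adjusted p = 8.96e-05 from limma). Rab25 and Ap1m2, of epithelial sorting, passed with log2 fold changes of 0.92 and 1.05, were lowest among Cy/+ arrays on array 1, and did not pass without Cy/+ array 2, without Cy/+ array 3 or without any 1 of the +/+ arrays. Rab11a and Yes1 did not pass. Fcgrt, the neonatal receptor that carries immunoglobulin G, and Il4r were the lower genes, both at -0.31 (adjusted p = 0.0475 and 0.0176 from limma). Neither held without Cy/+ array 3, without +/+ array 1 or without +/+ array 2, and Fcgrt held neither without Cy/+ array 2 nor without +/+ array 3.

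Of 13 listed epithelial transcription factors and splicing regulators, 9 had a probe set and 6 were tested. Of these, 4 were higher and 2 did not pass, with a median log2 fold change of 1.19. Klf5, a zinc finger factor of proliferating epithelia, gave 699.9, 1747 and 1018 in Cy/+ and 61.67, 74.35 and 99.02 in +/+ kidneys, at least 13.8-fold higher over the threshold (adjusted p = 9.34e-05 from limma). Elf3, an epithelial ETS factor that responds to NF-kappaB, gave 1332, 1991 and 1754 in Cy/+ and 260.2, 301.5 and 296.9 in +/+ kidneys (log2 fold change 2.55, adjusted p = 3.18e-05 from limma). Esrp1, which splices epithelial isoforms, was higher by 1.51 (adjusted p = 0.00636) and Tfcp2l1, a factor of the collecting duct, by 0.88 (adjusted p = 0.00274, both from limma). Ehf (0.25) and Grhl3 (0.54) did not pass. In all 6 tested genes, those that passed included, array 2 was the brightest and array 1 the dimmest of the Cy/+ arrays, the order of the uroplakins, and without Cy/+ array 1 all 6 passed as higher.

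Secreted defence genes of epithelial surfaces ranged between log2 fold changes of -2.32 and 5.11. Of 14 listed, 13 had a probe set and 7 were tested, of which 5 were higher and 2 lower, around a median log2 fold change of 1.80. Lcn2, which encodes the iron-binding lipocalin NGAL, gave 4504, 4998 and 4296 in Cy/+ and 126.3, 110 and 167.9 in +/+ kidneys (log2 fold change 5.11, standard error 0.16, adjusted p = 1.36e-05 from limma). Clu, which encodes clusterin, gave 13030, 12950 and 12840 in Cy/+ and 1373, 1310 and 1421 in +/+ kidneys (3.24, standard error 0.07, adjusted p = 2.27e-06 from limma). Slpi, a protease inhibitor of mucous secretions, gave 2897, 4734 and 2383 in Cy/+ and 368.7, 292.3 and 328.9 in +/+ kidneys (3.28, adjusted p = 5.36e-05 from limma). Wfdc2 was higher by 1.80 and Lyz2, a lysozyme of macrophages, by 1.04.

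The lower genes of this list were peptides made in the normal kidney. Tff3, a trefoil factor secreted with mucins, gave 2401, 1454 and 6700 in Cy/+ and 12940, 16570 and 13480 in +/+ kidneys (log2 fold change -2.32, standard error 0.50, adjusted p = 0.00499 from limma). Defb1, a defensin of the distal nephron, gave 3536, 5680 and 4974 in Cy/+ and 7257, 7127 and 7832 in +/+ kidneys (-0.67, adjusted p = 0.00967 from limma), and did not pass after quantile normalization. Of the genes not tested, Reg3g, an antibacterial lectin, gave 102.1, 57.84 and 49.07 in Cy/+ and 26.71, 30.28 and 28.03 in +/+ kidneys, above the threshold on Cy/+ array 1 alone. Tff1, Tff2, Agr2, Reg3b and Sftpd had means below the threshold in both genotypes.

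Genes with the most similar pattern were sought over the 6 arrays by the Euclidean distance between log2 signals, each less its +/+ mean, among 10644 other genes tested. The samples, and the genotype difference that most genes share, underlie all these distances, so they are descriptions. Eppk1 was nearest to Pla2g2a, which encodes a secreted phospholipase A2 (distance 0.29), then to Lcn2 (0.89) and Muc4 (0.91). Muc4 was nearest to Eppk1 (0.91), Pla2g2a (0.98) and Lcn2 (1.02). The +/+ means of Eppk1, Muc4 and Pla2g2a were below the threshold and their distances rest on those dim signals. With signals floored at the threshold Muc4 and Eppk1 stood at log2 differences of 3.63 and 3.64, against 5.11 for Lcn2, so their nearness to Lcn2 is not measured. Muc1 was nearest to Efna5 (0.27), Slc37a1 (0.27) and Arnt2 (0.31). For the genes with small differences the nearest ones were Mettl22, Coq8b and Fam177a1 for Epcam, Hs2st1, Qsox2 and Deaf1 for Pigr, and Gtf3c3, Galnt4 and Phf6 for Ceacam1, at distances of 0.055 to 0.15.

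The genes next to the listed ones in the order of GRCr8 protein-coding genes were looked up after the values above had been seen. Muc4 and Muc20 lie side by side on chromosome 11. On the other side of Muc4, Tnk2, which encodes a tyrosine kinase, gave 539.1, 811.3 and 615.8 in Cy/+ and 334.6, 373.8 and 334.6 in +/+ kidneys (log2 fold change 0.90, adjusted p = 0.00181 from limma), and so was higher by far less than Muc4 was measured to be. Fcmr, the receptor of immunoglobulin M that lies next to Pigr on chromosome 13, gave 510.3, 582.8 and 345.9 in Cy/+ and 156.5, 154.3 and 177.1 in +/+ kidneys (1.53, adjusted p = 0.000412 from limma). Fcmr is a gene of lymphocytes. The T cell markers Cd3e and Cd3g were higher on the same arrays, at least 3.12-fold and 3.30-fold over the threshold (adjusted p = 0.000392 and 0.00042 from limma). The B cell markers Cd79b and Ms4a1 had means below the threshold in both genotypes, and Jchain of plasma cells was higher. The part of lymphocytes in the Fcmr signal was not tested. Nrbp2 next to Eppk1 was higher by 1.87 and Calm2 next to Epcam by 0.48, Dmac2 next to Ceacam1 was lower, at -0.78, and Trim46 next to Muc1 did not pass.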

How the data were processed

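Kidney RNA of 3 Cy/+ and 3 +/+ samples was analysed, 1 array per sample, grouped by the labels. The authors made biotin-labeled cRNA and scanned the arrays. The deposited linear intensities, 1 per probe set, are credited to MAS5 by the submitters' processing notes, and no detection calls were used. Precision is limited by the number of arrays.

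Signals were taken to log2 without further scaling, and 57 control probe sets were left out. The probe sets at or above the 40th percentile of mean log2 signal were tested with limma 3.58.1 in R 4.3.3 (lmFit, eBayes with an intensity trend, Benjamini-Hochberg over 18625 probe sets). The same fit was also run on simulated arrays in which few probe sets were changed. Since most probe sets passed in these data, that run does not check the calls given here. Where the mean log2 signal of 1 genotype lay below that level, a fold is given as a bound, the other genotype's geometric mean over 77.8. Of 31099 probe sets, 20832 carried 1 gene symbol, 436 several and 9831 none, and 20764 were updated through Entrez gene IDs with the table of GRCr8. A gene is its brightest tested probe set.

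The listed genes and the related lists were chosen with earlier results of these data known. Named are all listed genes, the defining markers of cell types and the 3 nearest patterns. Of each related list, up to 4 genes of smallest adjusted p in each direction are named. Where 8 or fewer genes of a related list were tested, all of these are named. Other list genes and further cell type markers were chosen after their values were seen, so the marker lists are not named in full. Same-numbered arrays of the 2 genotypes correlated at 0.15, -0.11 and -0.15 in their deviations from the group means, so the numbers were not taken as pairs. Alternatives were other scalings, floors, filters, tests and probe sets, and leaving out each array in turn.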

Additional observations from a re-analysis of the deposited data

How the results depend on the processing

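The log2 differences of Muc1, Muc4, Eppk1, Epcam and Pigr kept their direction under every alternative run, and that of Ceacam1 under all but 1: it was -0.58 averaged over its probe sets. Leaving out each array in turn gave 0.97 to 1.39 for Muc1, 4.50 to 4.92 for Muc4, 4.66 to 4.88 for Eppk1, 0.35 to 0.43 for Epcam, 0.16 to 0.43 for Ceacam1 and 0.77 to 0.91 for Pigr. With signals floored at the threshold Muc4 was at 3.63 and Eppk1 at 3.64, and with a pseudocount of 16 at 4.25 and 4.27, since both alternatives raise the dim +/+ signals. Pigr was at 1.04 with quantile normalization, and the cause was not tested. With Cy/+ array 1 alone, an alternative chosen after the uroplakin signals were seen, the differences were 0.74 for Muc1, 5.06 for Eppk1, 0.29 for Epcam, 0.64 for Ceacam1 and 0.71 for Pigr. Muc4, dimmest on that array among the Cy/+ arrays, was there at 21.9 times its mean +/+ signal. Of the counts by list, the lower genes of immunoglobulin transport were 1 and not 2 with quantile normalization, no filter, no intensity trend, the methods' t-test before or after Benjamini-Hochberg, the replicate block and averaged probe sets, 0 with Cy/+ array 1 alone, and 0 to 2 when each array was left out. The lower secreted defence genes were 1 and not 2 with quantile normalization and with the methods' t-test after Benjamini-Hochberg. Lower O-glycan enzymes were 10 without the filter, which tests more genes, and higher ones 3 with averaged probe sets. Receptors and partners had 1 lower gene with the filter at the 60th percentile, which tests fewer, and 4 to 8 higher genes when each array was left out. With Cy/+ array 1 alone, 2 epithelial transcription factors were lower, but the spread in that fit comes from the +/+ arrays only and the lone array is assumed to vary like them. The replicate block gave 6293 probe sets higher and 5340 lower, against 6661 and 5830 without it. Quantile normalization moved the median of all genes by -0.06 and gave 6237 higher and 6366 lower, and centring on the median moved it by -0.07 and gave 5983 higher and 6577 lower. No gene called in these lists changed its sign under the alternatives that keep its probe set. Signals below 77.8 limit Muc4, Eppk1, Jchain, Klf5, Cd3e, Cd3g and 1 probe set of Ceacam1 to lower bounds.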
